A study of Rattus norvegicus with 20 samples.

Results

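The 10 genes described here are protein-coding genes of the rat mitochondrial genome, followed across the dorsal and the ventral subiculum, in control animals and 24 hours after the protocol that the labels call preconditioning. The genes were chosen by their identity, as 10 of the 32883 gene IDs in the count table, but with earlier results of these data known. All 10 were present and passed the filter on low counts in every comparison. They are Mt-nd1, Mt-nd2, Mt-nd3, Mt-nd4 and Mt-nd5, which encode core subunits of complex I (NADH dehydrogenase), Mt-cyb, which encodes cytochrome b of complex III, Mt-co1, Mt-co2 and Mt-co3, which encode the catalytic core of complex IV (cytochrome c oxidase), and Mt-atp6, which encodes a proton channel subunit of ATP synthase (complex V). Their IDs in the table are ENSRNOG00000030644 (Mt-nd1), ENSRNOG00000031033 (Mt-nd2), ENSRNOG00000033615 (Mt-nd3), ENSRNOG00000029707 (Mt-nd4), ENSRNOG00000029971 (Mt-nd5), ENSRNOG00000031766 (Mt-cyb), ENSRNOG00000034234 (Mt-co1), ENSRNOG00000030371 (Mt-co2), ENSRNOG00000030700 (Mt-co3) and ENSRNOG00000031979 (Mt-atp6).

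The respiratory chain passes electrons from NADH to oxygen and pumps protons across the inner mitochondrial membrane, and ATP synthase uses that gradient to make ATP. Most subunits come from nuclear genes, but the core of complexes I, III and IV and part of ATP synthase are encoded by mitochondrial DNA. Both strands of that DNA are transcribed as long precursors that are cut into single messages, and most of these messages carry short poly(A) tails, so they are caught by poly(A)-selected libraries. In brain, oxidative phosphorylation supplies most of the ATP that neurons spend on ion pumping and synaptic transmission.

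The 20 libraries came from wild-type Wistar rats aged 3 months and formed 4 groups of 5: dorsal control, ventral control, dorsal preconditioning and ventral preconditioning. By the series title, the treatment was acute seizures evoked by stimulating the perforant pathway electrically, and that pathway is the main cortical input to the hippocampal formation. The groups share strain, age and genotype. The tissue was dissected by laser from frozen sections and sequenced after preparation with a stranded mRNA kit. The labels do not say which libraries came from the same animal, so the p-values measure only the spread between these libraries. No gene of the table other than these 10 was named, so the dissected tissue was not checked against marker genes of the subiculum or of other cell types.

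Total counts per library ranged from 3087146 to 20463678, and the least-counted gene of the set, Mt-nd4, still had between 478 and 4213 counts in each library. Counting error was therefore small for all 10 genes, and the spread between libraries set the precision. Levels are given below as a share of all counts of a library, in percent. They are not corrected for gene length, so a larger share does not mean more molecules when genes are compared with each other. In tissue RNA, fewer cells with many mitochondria and less mitochondrial RNA per cell cannot be told apart.

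The summed share of the 10 genes ranged from 4.23% to 10.8% over the libraries. In dorsal controls the summed shares were 10.8%, 10.6%, 6.55%, 7.14% and 8.95% in libraries 1 to 5, a mean of 8.79% ± 1.92 (SD, n = 5). In ventral controls they were 6.73%, 9.89%, 5.48%, 6.66% and 6.43%, a mean of 7.04% ± 1.67. Ventral control 2 stood above the other ventral controls and inside the dorsal range, so the groups overlapped.

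After preconditioning the summed shares were 6.68%, 8.36%, 6.90%, 6.88% and 8.33% in dorsal libraries 1 to 5, a mean of 7.43% ± 0.842 (SD, n = 5). In the ventral libraries they were 4.89%, 7.94%, 4.23%, 5.57% and 9.96%, a mean of 6.52% ± 2.38. The ventral preconditioning group was the most spread of the 4 groups and held both the lowest library, number 3, and one near the top of the series, number 5. The part of depth in these values was not tested. The deepest library, ventral control 4 with 20463678 counts, had 6.66%, close to the 6.73% of the shallowest, ventral control 1 with 3087146 counts. Dorsal control 1 and ventral preconditioning 5, with 19736089 and 19291639 counts, had 10.8% and 9.96%. Within the ventral preconditioning group, the libraries with the highest shares, numbers 5 and 2, were also the deepest. Number 2 had 16203907 counts, and numbers 1, 3 and 4 had 9290539, 8926820 and 7878493.

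**Figure D1:**
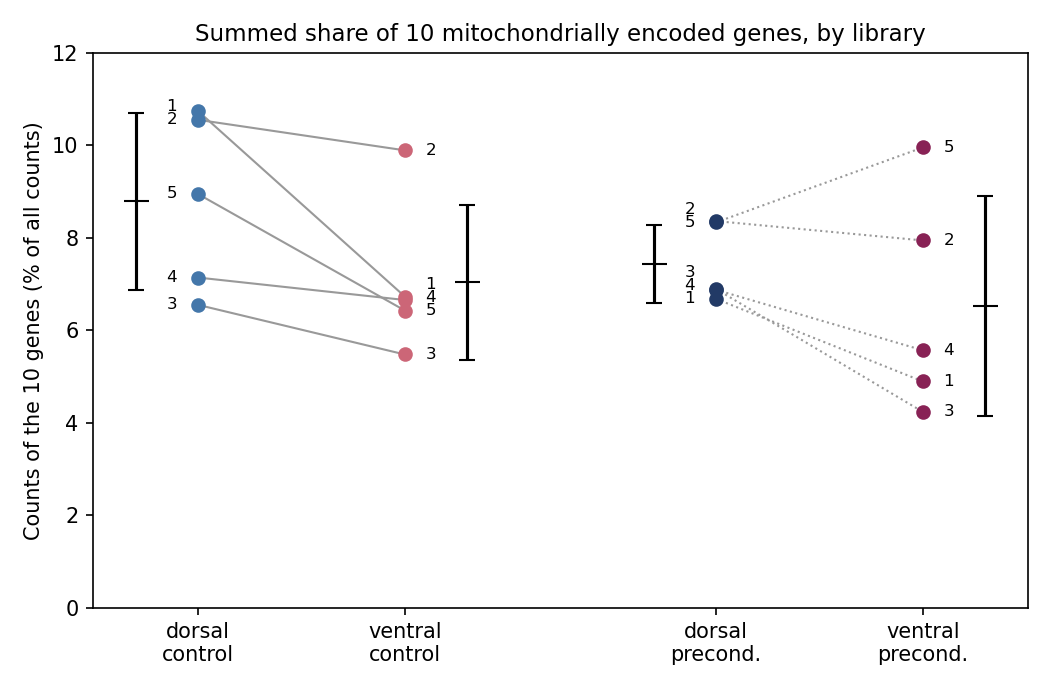
Each point is the summed share of the 10 genes in 1 library, in percent of all its counts, with the library number beside it, and the black marks beside each group are mean ± SD (n = 5). Grey lines join same-numbered dorsal and ventral libraries, solid for controls and dotted after preconditioning. All 5 solid lines fall from dorsal to ventral, while the dotted line of number 5 rises from 8.33% to 9.96%.

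Within the set, the counts were unevenly divided. Mt-co1, the subunit of cytochrome c oxidase that holds the site of oxygen reduction, had the most counts of any gene in all 20 libraries, with between 24.8% and 29.4% of the summed counts of the 10 genes. Mt-co3 ranked second in all 20 libraries. Mt-atp6, Mt-cyb, Mt-nd2, Mt-co2 and Mt-nd1 held ranks between 3 and 9.

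The other complex I messages lay far lower. Mt-nd5 ranked between 15 and 98 among all genes, Mt-nd3 between 123 and 457, and Mt-nd4 between 820 and 2825. Mt-nd3 encodes a very short protein, but Mt-nd4 has one of the longer mitochondrial coding sequences and still supplied only 0.140% to 0.235% of the set's counts. Mammalian nuclear genomes carry copies of mitochondrial sequence, and how reads that match both were counted is not given in the sources used here. The share of every gene of the set is uncertain to that extent.

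The 10 genes varied together from library to library. Their levels were compared as log2 CPM (counts scaled to library size, adjusted by TMM scaling factors). Over the 20 libraries, the Pearson correlation between any pair of them had a median of 0.918 and a range from 0.586 to 0.986 over 45 pairs. These points share library, depth and the total they are divided by, so the values are a description. The highest was that of Mt-atp6 with Mt-co3 and the lowest that of Mt-nd3 with Mt-nd5. Against the sum of the other members, Mt-co3 followed most closely (r = 0.992), and Mt-nd4 (r = 0.855) and Mt-nd5 (r = 0.781) least closely.

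Among the 14077 other genes that passed the filter over all 20 libraries, the gene ID whose log2 level was most like the set's sum was ENSRNOG00000011014 (r = 0.902 over 20 libraries). The next was ENSRNOG00000003220 (r = 0.894). Both were far less abundant than the set: ENSRNOG00000011014 had a share of 0.0112% to 0.0163%, and ENSRNOG00000003220 one of 0.00644% to 0.0119%. Neither ID has a name here.

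**Figure D2:**
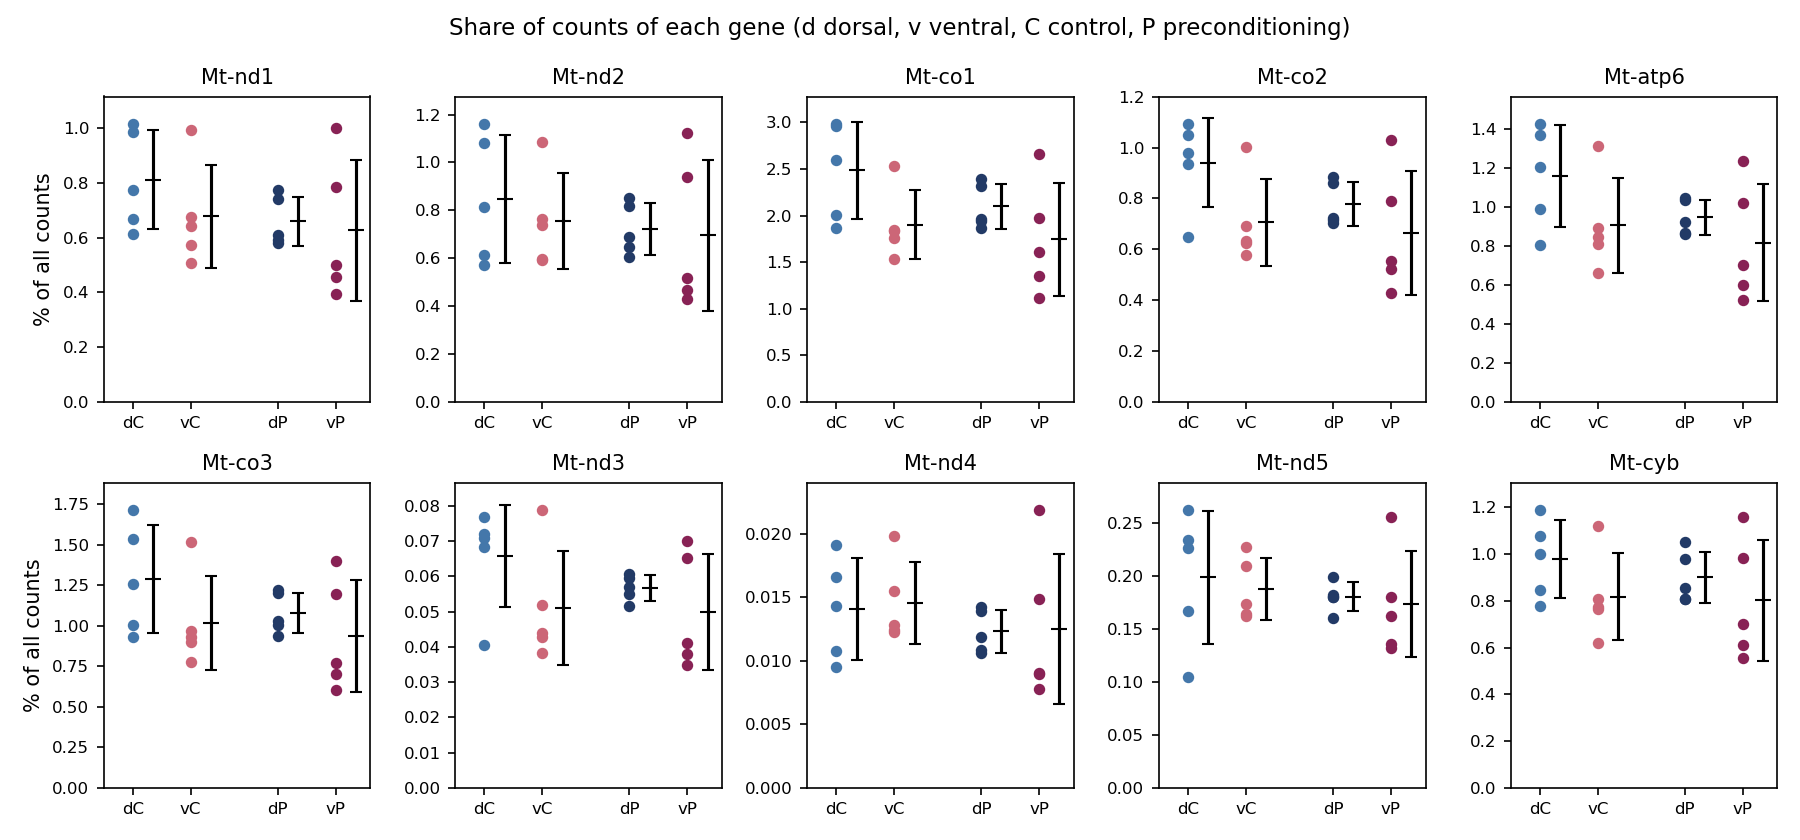
Each panel shows the share of all counts, in percent, of 1 gene in the 20 libraries (points) with mean ± SD beside each group (n = 5). The axes start at 0 and differ between genes. In every panel the groups overlap, and 1 ventral control and 2 ventral preconditioning libraries lie apart above most of their groups for most genes.

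The ventral and the dorsal subiculum were compared first in controls, to ask whether mitochondrial messages differ along the axis of the region without stimulation. When same-numbered libraries were compared with each other in edgeR, 7 of the 10 genes were lower in the ventral region, at a fitted 0.718 to 0.799 times the dorsal level. These were all 3 complex IV genes, Mt-atp6, Mt-cyb, Mt-nd1 and Mt-nd3. Of the 13509 genes tested, 18.8% were called lower in that paired fit. Without the pairing, edgeR and DESeq2 called 0 of the 10, where 25.7% and 29% of all genes were called. Limma-voom with sample quality weights, also without the pairing, called 8 lower, where 20.1% of all genes were.

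Mt-co1 measured 2.98%, 2.96%, 1.87%, 2.01% and 2.60% of counts in dorsal controls 1 to 5. It measured 1.83%, 2.53%, 1.54%, 1.76% and 1.85% in ventral controls 1 to 5. The ventral library was the lower one for each number, although ventral control 2 lay above dorsal controls 3 and 4. In edgeR's quasi-likelihood test on the 10 libraries the log2 fold change was -0.43 (SE 0.18, 95% interval -0.82 to -0.05), with an adjusted p of 0.0923. With the replicate number as a block it was again -0.43, with an SE of 0.09, an interval from -0.63 to -0.24 and an adjusted p of 0.00161.

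Mt-co2, which carries the copper centre that takes electrons from cytochrome c, measured 1.05%, 1.09%, 0.649%, 0.934% and 0.981% in dorsal and 0.632%, 1.003%, 0.576%, 0.693% and 0.625% in ventral controls 1 to 5. Its blocked log2 fold change was the most negative of the set, at -0.48 (SE 0.10, adjusted p = 0.0025 in edgeR), against an adjusted p of 0.0893 without the block. Mt-co3, the remaining core subunit of the oxidase, measured 1.71%, 1.54%, 0.934%, 1.01% and 1.26% in dorsal and 0.967%, 1.52%, 0.774%, 0.934% and 0.902% in ventral controls. Pair 2 hardly differed for Mt-co3, and the other 4 pairs were lower in the ventral library. The blocked log2 fold change was -0.39 (SE 0.11, adjusted p = 0.0162).

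Mt-atp6 measured 1.42%, 1.37%, 0.805%, 0.990% and 1.21% in dorsal and 0.812%, 1.31%, 0.659%, 0.894% and 0.848% in ventral controls 1 to 5. Mt-cyb, which carries electrons through complex III, measured 1.08%, 1.19%, 0.849%, 0.780% and 1.001% in dorsal and 0.776%, 1.12%, 0.619%, 0.767% and 0.810% in ventral controls. Both genes were lower in the ventral library of each number. The blocked log2 fold change was -0.42 (SE 0.11, adjusted p = 0.00856) for Mt-atp6 and -0.32 (SE 0.09, adjusted p = 0.0107) for Mt-cyb in edgeR.

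Among the complex I genes, 2 of 5 were called in the blocked edgeR fit. Mt-nd1, a membrane subunit beside the quinone site, called lower in the ventral region, measured 0.986%, 1.02%, 0.614%, 0.670% and 0.774% in dorsal and 0.677%, 0.994%, 0.507%, 0.644% and 0.572% in ventral controls 1 to 5. Its blocked log2 fold change was -0.32 (SE 0.09, adjusted p = 0.0139 in edgeR). Mt-nd3 measured 0.0767%, 0.0721%, 0.0406%, 0.0684% and 0.0710% in dorsal and 0.0438%, 0.0786%, 0.0383%, 0.0518% and 0.0427% in ventral controls. It was lower in 4 of 5 ventral libraries, pair 2 being the exception, and its blocked estimate was -0.43 (SE 0.14, adjusted p = 0.0302).

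The other complex I genes, Mt-nd2, Mt-nd4 and Mt-nd5, did not pass the threshold in edgeR with or without the block. Whether they differed from the called genes was not tested. Limma-voom called Mt-nd2 lower in both fits, and so did blocked edgeR without pair 4. Mt-nd2 was lower in 3 of 5 ventral libraries, with a blocked log2 fold change of -0.20 and a 95% interval from -0.48 to 0.08. Mt-nd5 was also lower in 3 of 5, at -0.08 (interval -0.39 to 0.22). Mt-nd4 measured 0.0191%, 0.0166%, 0.00949%, 0.0108% and 0.0143% in dorsal and 0.0155%, 0.0199%, 0.0129%, 0.0123% and 0.0125% in ventral controls. It was lower in the ventral library for numbers 1 and 5 and higher for the other 3, and its estimate was close to 0, at 0.02 (interval -0.23 to 0.27).

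**Figure D3:**
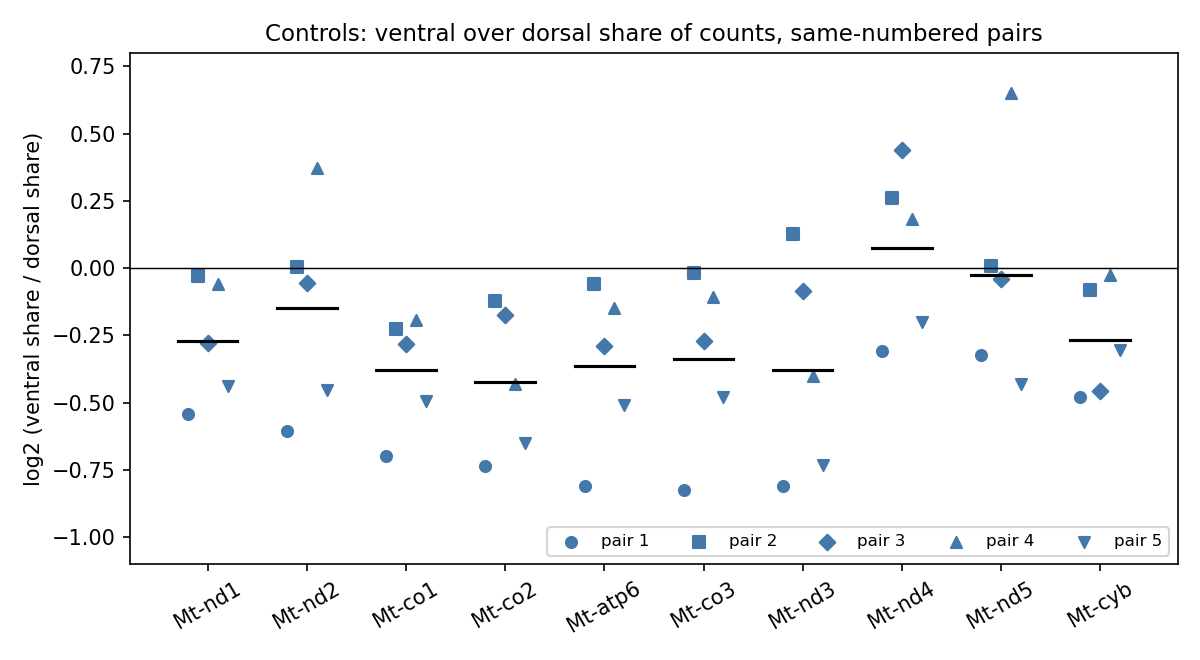
Each symbol is the log2 ratio of the ventral to the dorsal share of counts in 1 same-numbered pair of control libraries, and the black bar is the mean of the 5 pairs. For 6 genes all 5 pairs lie below 0. Pair 1 has the lowest ratio for 9 of the 10 genes, all but Mt-nd5, and Mt-nd4 has 3 pairs above 0.

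For these controls the block rested on a check of the data, not on the labels: the deviations of same-numbered dorsal and ventral libraries from their group means correlated across genes by at least 0.2 in each of 5 pairs. With it, 7 of the 10 genes were called lower in the ventral region, where 18.8% of the 13509 genes tested were called lower and 36.4% were called at all. Without it, edgeR called 0 of 10, where 25.7% of all genes were called, and 2 had an unadjusted p under 0.05 (Mt-co1 and Mt-co2), where 37.1% of all genes did. Of the 10, 6 had the lower share in the ventral library of all 5 pairs, where 18.2% of all genes did. None of the 10 had groups that did not overlap, where 19% of all genes did. The median log2 fold change of the set was -0.34 without and -0.36 with the block, against 0.02 over all genes tested in either fit. In fits without the block, leaving out ventral control 2 moved it to -0.55, and dorsal control 3 or 4 to -0.44 or -0.39. Leaving out ventral control 3 moved it to -0.24, and dorsal control 1 or 2 to -0.27 or -0.26. It was -0.31 without ventral control 1, 4 or 5 and -0.35 without dorsal control 5. The 10 genes vary together, so they are not 10 separate observations of a regional difference.

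The number of genes called depended on single libraries. With the block, 3 of 10 passed without pair 1 (Mt-co1, Mt-co2 and Mt-atp6), 4 without pair 5 (these and Mt-cyb), 7 without pair 2 or pair 4 and 6 without pair 3, all lower in the ventral region, where 15% to 17.9% of all genes were called lower in those fits. Without the block, 7 passed once ventral control 2 was left out, where 15.5% of all genes were called lower. It was 2, Mt-co1 and Mt-co2, once dorsal control 3 was left out, where 14.1% were. DESeq2 called 0 without the block, and 7 lower with it, where 17.1% of all genes were called lower. Limma-voom with sample quality weights called 8 lower without the block, where 20.1% of all genes were, and 8 with it, where 19.8% were. Pair 1 joins dorsal control 1, with 19736089 counts, to the shallowest library, ventral control 1, with 3087146. The dorsal library was the deeper one in pairs 1, 3 and 5, with log2 ratios of the summed share of -0.68, -0.26 and -0.48. In pairs 2 and 4, where the ventral one was deeper, they were -0.09 and -0.10. The part of depth in these ratios was not tested.

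After preconditioning the regional difference was called for no gene in edgeR. Mt-co1 measured 1.97%, 2.396%, 1.87%, 1.94% and 2.32% in dorsal preconditioning 1 to 5. In ventral preconditioning 1 to 5 it measured 1.35%, 1.97%, 1.12%, 1.61% and 2.66%. The ventral library with number 5 was the highest of all 10 for Mt-co1, and ventral libraries 1, 3 and 4 lay below every dorsal one. The log2 fold change was -0.23 (SE 0.19, interval -0.64 to 0.18, adjusted p = 0.429 in edgeR).

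Mt-nd1 showed the same arrangement, with 0.581%, 0.741%, 0.612%, 0.591% and 0.774% in dorsal and 0.455%, 0.786%, 0.393%, 0.501% and 1.001% in ventral preconditioning 1 to 5. Libraries 2 and 5 were the highest of the ventral group and libraries 1, 3 and 4 the lowest of all 10. Its log2 fold change was -0.03, with an interval from -0.51 to 0.45. Over the set the median was -0.14, against 0.02 over all genes, and 9 of 10 estimates were below 0, with Mt-nd4 at 0.07 (interval -0.46 to 0.59). Leaving out 1 ventral library moved that median to -0.06 (number 1), -0.23 (number 2), -0.03 (number 3), -0.07 (number 4) or -0.32 (number 5), and leaving out dorsal preconditioning 5 to -0.08. In 4 of these fits, those without ventral number 1, 3 or 4 or dorsal number 5, only 6 of 10 estimates were below 0.

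EdgeR called 0 of 10 genes in this comparison, where 26.7% of the 13640 genes tested were called, and 0 had an unadjusted p under 0.05, where 37% did. DESeq2 also called 0, and limma-voom with sample quality weights called 5, all lower in the ventral region, where 17.3% of all genes were called lower. None of the 10 had groups that did not overlap, where 19.1% of all genes did. Leaving out ventral preconditioning 5 gave 1 call in edgeR, Mt-co1, where 13.8% of all genes were called lower. In that fit 3 of the 10 had an unadjusted p under 0.05, and the share of all genes that did was not computed. The edgeR intervals above held 0 as well as lower and higher ventral levels, so they do not show that the regions were alike.

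The effect of the seizures was examined next within each region. These comparisons use the same libraries as the regional ones, so their values are not separate evidence. In the dorsal subiculum all 10 estimates were below 0 after preconditioning and none passed the threshold. Mt-co1 spanned 1.87% to 2.98% in dorsal controls and 1.87% to 2.396% in dorsal preconditioning, so the preconditioned libraries lay in the lower part of the control range. The log2 fold change was -0.31 (SE 0.14, interval -0.62 to -0.00106, adjusted p = 0.613 in edgeR).

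Mt-nd1 had the most negative dorsal estimate. Its mean share was 0.812% ± 0.182 in controls and 0.660% ± 0.0904 after preconditioning (SD, n = 5 each), and the estimate was -0.37 (SE 0.15, adjusted p = 0.546). Mt-atp6 went from 1.16% ± 0.260 to 0.947% ± 0.0894, at -0.36 (SE 0.15, adjusted p = 0.536). Mt-co2 went from 0.942% ± 0.174 to 0.777% ± 0.0866, at -0.34 (SE 0.14, adjusted p = 0.512). Mt-cyb had the smallest estimate, at -0.19, with an interval from -0.47 to 0.10.

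EdgeR called 0 of 10 genes in the dorsal comparison, where 0.271% of the 13647 genes tested were called. Mt-nd1, Mt-co1, Mt-co2 and Mt-atp6 had an unadjusted p under 0.05, or 4 of 10, where 8.11% of all genes did. That count was 0 without dorsal control 1 or 2 or dorsal preconditioning 1, 3 or 4, and in the fit of all 20 libraries. It was 1 without dorsal control 5 and 7 without dorsal control 3 or 4. The share of all genes with an unadjusted p under 0.05 was not computed for these other fits. DESeq2 and limma-voom with sample quality weights called 0 of the 10 as well, where 169 and 172 of the 13647 genes tested were called. All 10 had an unadjusted p under 0.05 in limma-voom. The share of all genes that did so in limma-voom was not computed, so that count has nothing to be set against. The median log2 fold change of the set was -0.31, against -0.01 over all genes tested. No gene of the set had groups that did not overlap, where 2.23% of all genes did. The median moved to -0.20 without dorsal control 1 and to -0.21 without dorsal control 2, which were the libraries with the largest summed shares of that group.

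In the ventral subiculum the estimates lay closer to 0, and their intervals were wider for 9 of 10 genes, all but Mt-nd5. Mt-co1 spanned 1.54% to 2.53% in ventral controls and 1.12% to 2.66% in ventral preconditioning, so the treated range enclosed that of the controls. Its log2 fold change was -0.10 (SE 0.22, interval -0.58 to 0.38, adjusted p = 0.877 in edgeR). Mt-nd4 had the most negative estimate, from 0.0146% ± 0.00323 to 0.0125% ± 0.00591 (SD, n = 5 each), at -0.19 (interval -0.77 to 0.40). Mt-cyb was nearest 0, from 0.819% ± 0.185 to 0.802% ± 0.258.

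EdgeR called 0 of 10 genes, where 5.06% of the 13291 genes tested were called, and 0 had an unadjusted p under 0.05, where 18% did. DESeq2 and limma-voom with sample quality weights also called 0. No gene of the set had groups that did not overlap, where 6.99% of all genes did. The median of the set was -0.09, against -0.01 over all genes, and it turned to 0.13 without ventral control 2 and to -0.31 without ventral preconditioning 5. Without ventral preconditioning 1, 2, 3 or 4 it was 0.01, -0.17, 0.04 or -0.01, and without ventral control 3 or 5 it was -0.18 or -0.14. The direction of the ventral estimates thus rested on single libraries.

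**Figure D4:**
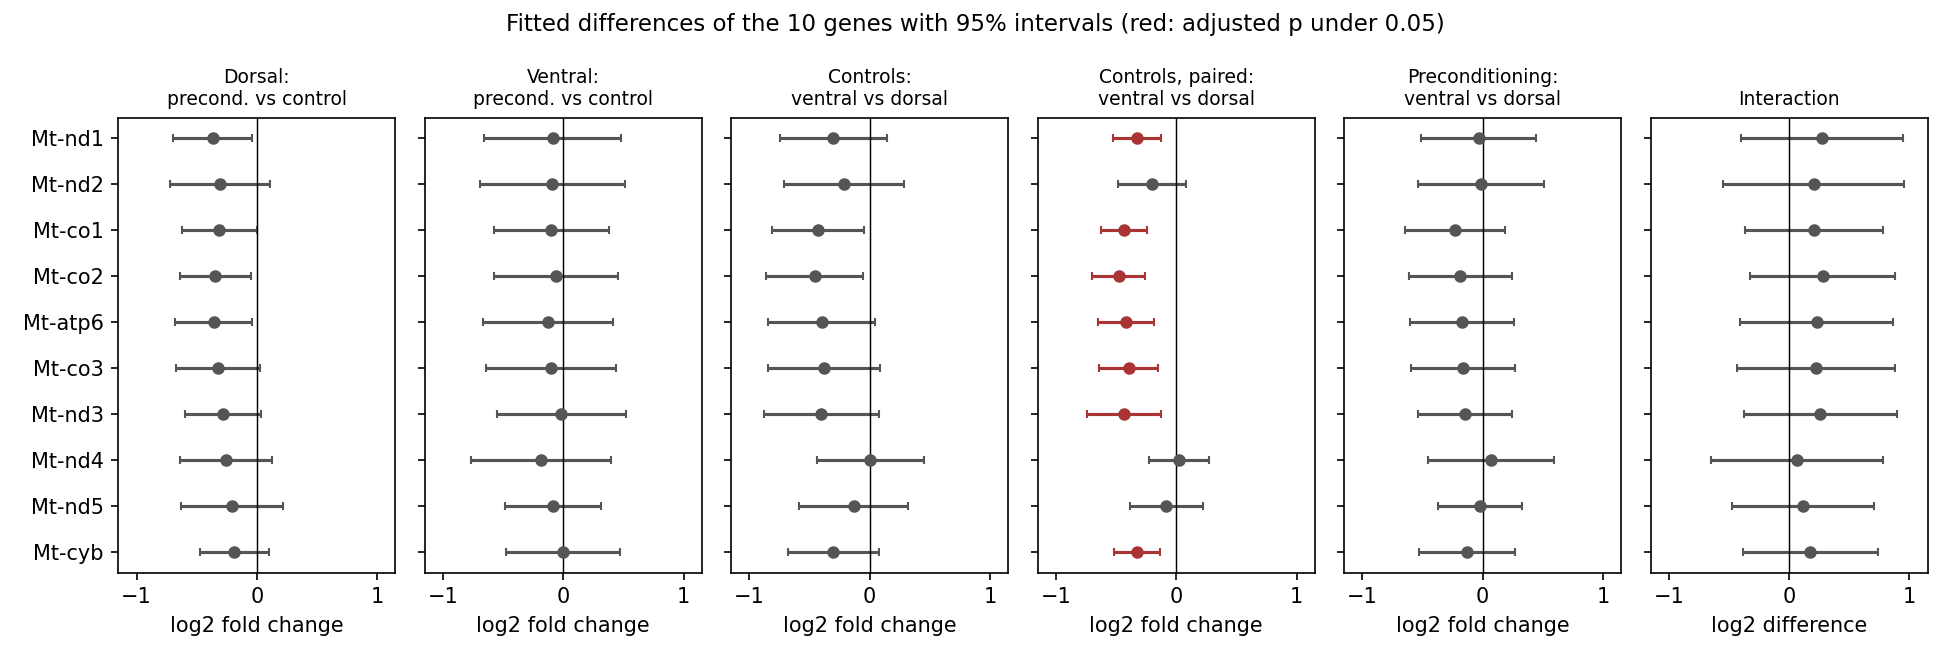
Points are log2 fold changes from edgeR for the 10 genes in each comparison, with 95% intervals as bars. Red marks an adjusted p under 0.05 over all genes tested, which 7 genes reach in the paired comparison of the control regions and none reaches in the other 5 panels of edgeR fits. The last panel shows the ventral response minus the dorsal response.

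Whether the regions responded differently was tested over all 20 libraries as an interaction. All 10 estimates were above 0, meaning a less negative estimate in the ventral region, and none passed the threshold. The largest was that of Mt-co2, at 0.28 (SE 0.29, interval -0.33 to 0.88, adjusted p = 0.915 in edgeR), and the smallest that of Mt-nd4, at 0.07 (SE 0.35, interval -0.65 to 0.78). EdgeR called 0 of 10, where 0.0781% of the 14087 genes tested were called, and 0 had an unadjusted p under 0.05, where 6.73% did. DESeq2 and limma-voom with sample quality weights also called 0. The median of the set, 0.21, was 0.42 without ventral control 2, 0.34 without ventral preconditioning 3 and 0.32 without ventral preconditioning 1. It was 0.00341 without ventral preconditioning 5, 0.14 without dorsal control 1, and 0.13 without dorsal control 2, ventral control 3 or ventral preconditioning 2. A difference between the regional responses was therefore not detectable in these libraries, and the intervals do not show that the responses were alike.

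The division of counts within the set was described next. Complex IV genes supplied 49.8% to 55.3% of the summed counts, complex I genes 19.9% to 25.4%, Mt-atp6 12.04% to 13.9% and Mt-cyb 10.04% to 13.1%. Complex IV averaged 53.7% ± 1.03 (SD, n = 5) of the sum in dorsal and 51.6% ± 0.898 in ventral controls, and 53.2% ± 0.718 in dorsal and 51.5% ± 1.28 in ventral preconditioning. Complex I averaged 21.9% ± 1.33 in dorsal and 23.9% ± 1.35 in ventral controls, and 21.9% ± 0.574 and 23.6% ± 1.33 after preconditioning. These shares sum to a whole, so a higher share of one complex lowers another, and they were not tested.

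Mt-nd4 supplied 0.178%, 0.157%, 0.145%, 0.151% and 0.160% of the summed counts in dorsal controls 1 to 5 and 0.230%, 0.201%, 0.235%, 0.184% and 0.194% in ventral controls, so each ventral value was above each dorsal one. This share has no counterpart over all genes to set it against. After preconditioning the ranges overlapped, from 0.154% to 0.178% in dorsal and from 0.140% to 0.219% in ventral libraries. Mt-nd4 was picked out after these values had been seen.

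Of all 20 libraries, dorsal control 4 had the highest share of Mt-co2 within the set and the lowest of Mt-nd2 and Mt-nd5. The search for outlying libraries reported below did not flag it for any gene. Mt-co2 made up 13.1% of the set's counts there, against 9.78% to 10.95% in the other dorsal controls. Mt-nd2 made up 7.99%, against 9.09% to 10.8%, and Mt-nd5 1.46%, against 2.14% to 2.62%. Its summed share, 7.14%, lay inside the range of its group, so these differences were in the division of the counts and not in their total. Without pair 4, which holds this library, the paired comparison of the control regions still called 7 genes, with Mt-nd2 among them and Mt-nd3 no longer.

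**Figure D5:**
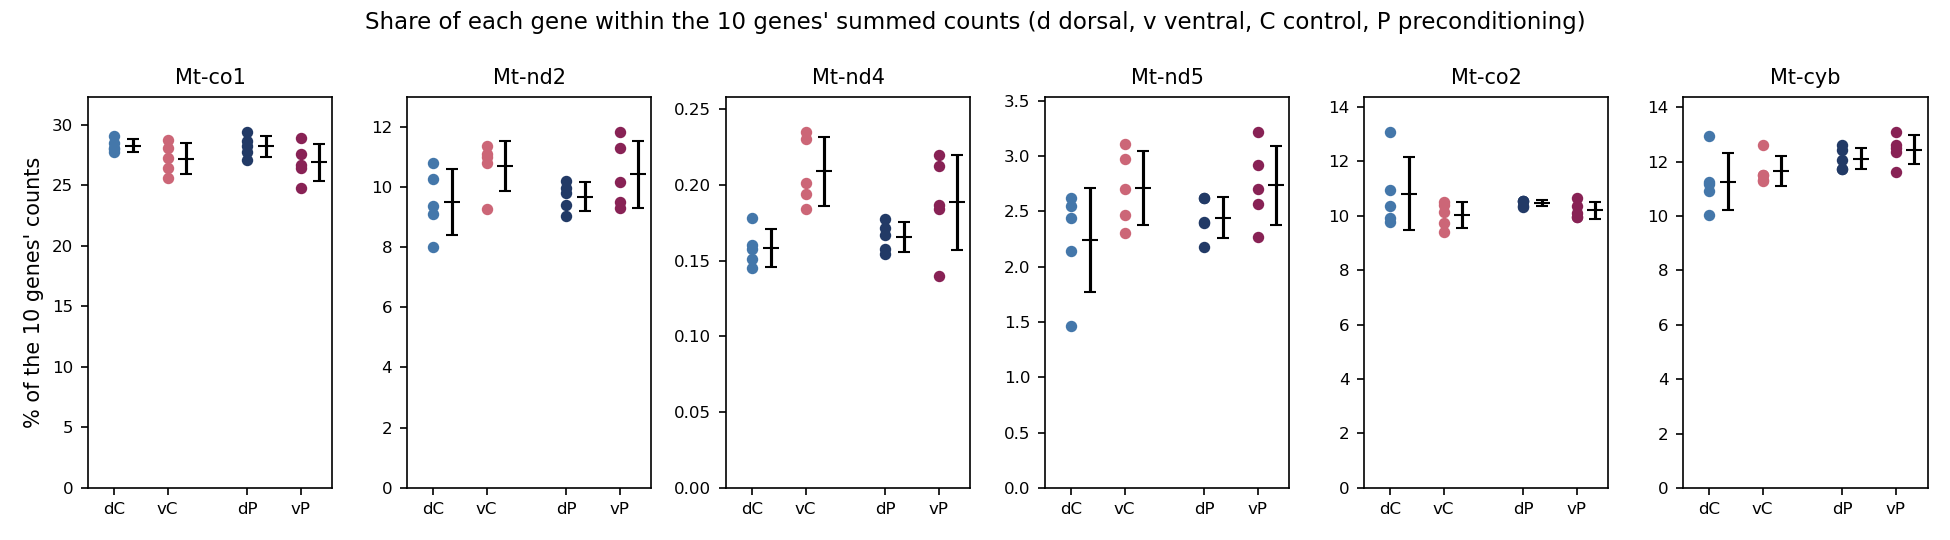
Each panel gives, for 1 of 6 genes, its share within the summed counts of the 10 genes, in percent, for the 20 libraries (points) with mean ± SD beside each group (n = 5). The axes start at 0. Mt-nd4 separates dorsal from ventral controls, and 1 dorsal control has the highest Mt-co2 and the lowest Mt-nd2 and Mt-nd5 shares of the 20 libraries.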

How the data were processed

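Per the labels' protocols, stranded mRNA libraries were made from laser-dissected tissue. The deposited table holds raw counts per Ensembl gene ID. The submitters' processing notes name STAR, DESeq2 and the build Rnor_5.0. The counting tool, annotation and strand setting are not given in the sources used here. Groups and numbers came from sample titles. The columns of treated libraries begin with e where titles begin with p and were matched by number and region. The 10 members and their names came with the definition of the set. Members and lists were chosen with earlier results of these data known. Lists of nuclear respiratory chain genes and cell type markers were not used, because 0 IDs matched the reference table of 47357 genes.

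All genes were tested in edgeR 4.0.16 (R 4.3.3) with filterByExpr, TMM and glmQLFTest (robust=TRUE), each comparison on its 10 libraries and the interaction on 20. Benjamini-Hochberg adjusted p-values under 0.05 over all genes tested were called. SE is the estimate over the square root of F. All 10 members are named, as the naming rule asks, with the 2 IDs most like their sum.

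Same numbers were taken to pair libraries where every same-numbered correlation of deviations from group means exceeded 0.1. This held for dorsal and ventral controls (0.2 to 0.393), so the blocked values stand beside that comparison. The other pairings had a lowest correlation of -0.222 (dorsal treatment), -0.0135 (ventral treatment) and 0.0376 (regions after preconditioning). Alternatives used DESeq2 1.42.0, limma 3.58.1, other scalings and filters, and left-out libraries. The edgeR fits were run on simulated counts with planted changes larger than those described here, drawn separately for each gene. Pair effects were planted where the block was used. That check does not cover smaller changes, genes that vary together or numbers that do not pair. CPM in the correlations was computed from the counts with TMM factors over all 20 libraries. Log2 CPM of single genes had a prior count of 2. Figures used matplotlib 3.10.9.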

Additional observations from a re-analysis of the deposited data

Results flagged for a closer look

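In 84 groups of 5 values, 8 held a library far from the rest of its group, where chance gives about 1 in 20 for separate groups. These groups are not separate, because they show the same libraries through genes that vary together. The number flagged is therefore no measure of an excess over chance.

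Ventral control 2 was high for the summed share, at 9.89% against 5.48% to 6.73% in the other ventral controls. It was also high for the share of all counts of Mt-co2, at 1.003% against 0.576% to 0.693%, and of Mt-co3, at 1.52% against 0.774% to 0.967%. Mt-co3 made up 15.3% of the set's counts in it, against 14.0% to 14.4%.

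Dorsal control 3 was low for Mt-nd3, at 0.0406% of all counts against 0.0684% to 0.0767% in the other dorsal controls. In dorsal control 1, Mt-co3 made up 15.9% of the set's counts, against 14.0% to 14.5%.

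Ventral control 5 differed in composition. Mt-nd2 made up 9.26% of the set's counts there, against 10.8% to 11.3%, and Mt-cyb 12.6%, against 11.3% to 11.5%.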

How the results depend on the processing

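With libraries left out 1 at a time, the estimates of the members whose sign changed spanned -0.34 to 0.14 for Mt-nd1, -0.35 to 0.12 for Mt-nd2, -0.19 to 0.24 for Mt-nd3, -0.51 to 0.0013 for Mt-nd4, -0.28 to 0.037 for Mt-nd5, -0.32 to 0.070 for Mt-co1, -0.29 to 0.15 for Mt-co2, -0.31 to 0.14 for Mt-co3, -0.34 to 0.095 for Mt-atp6 and -0.19 to 0.18 for Mt-cyb for ventral preconditioning against control, -0.28 to 0.10 for Mt-nd1, -0.27 to 0.12 for Mt-nd2, -0.25 to 0.20 for Mt-nd4 and -0.22 to 0.065 for Mt-nd5 for ventral against dorsal after preconditioning, -0.17 to 0.14 for Mt-nd4 for the control regions, and -0.053 to 0.41 for Mt-nd2, -0.25 to 0.24 for Mt-nd4, -0.083 to 0.28 for Mt-nd5, -0.012 to 0.36 for Mt-co1 and -0.0074 to 0.35 for Mt-cyb for the interaction. None of these was called, and why they changed was not tested. No estimate for dorsal preconditioning against control changed sign.

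For the control regions, 7 members were called with the replicate block, also with DESeq2 size factors, with the members out of the library sizes and in DESeq2, and 8 in limma-voom with quality weights, with or without it. At an adjusted p under 0.1 without the block it was 2. Leaving out a library gave 0 to 7 calls without the block. With the block, leaving out pairs 1 to 5 gave 3, 7, 6, 7 and 4, with Mt-nd5 at 0.0051 without pair 1 and 0.027 without pair 5, and Mt-nd4 at -0.035 without pair 2 and -0.065 without pair 3. Mt-nd4 was -4.4e-05 with at least 1 count, -0.0042 with a mean count of at least 50, -0.27 in limma-voom and -0.012 in blocked limma-voom.

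After preconditioning the numbers did not pair the regional libraries by the rule used, with 3 of 5 best correlated with their own number. The block called 0 members there, 4 without pair 5 (Mt-co1, Mt-co2, Mt-atp6 and Mt-co3; 15.1% of all genes called lower) and 6 in limma-voom (20.2% of all genes called lower), which called 5 without the block. Leaving out a library without the block gave 0 to 1. Mt-nd4 was -0.047 with the block, -0.043 with the block and DESeq2 size factors, -0.059 with the block and members out of the library sizes, -0.047 in blocked DESeq2, -0.18 in blocked limma-voom and -0.32 in limma-voom. With the block it was -0.11 without pair 2 and -0.23 without pair 5. Without pair 3, Mt-nd1, Mt-nd2 and Mt-nd5 were 0.0026, 0.012 and 0.016. With at least 1 count, Mt-nd2 was 0.00086 there and Mt-cyb 0.0058 for ventral preconditioning against control. For the interaction, Mt-nd4 was -0.067 with the block and -0.078 in limma-voom.

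The numbers did not pair control with treated libraries either. With the block, calls over all genes went from 37 to 26 in the dorsal and from 672 to 1261 in the ventral comparison, from 3647 to 4190 between the regions after preconditioning and from 11 to 62 for the interaction, with 0 members called in each. Blocked fits other than the plain block were chosen after seeing the data. With Mt-co1 taken out of both the set and the total, the summed share was 6.47% in dorsal controls, 5.24% in ventral controls and 5.45% in dorsal preconditioning. In these groups the share moved by more than the SD of the group, and in ventral preconditioning it moved by less. The lowest count of a member in a library was 478, so the spread between libraries limits these results more than counting error does.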
